A study of Mus musculus with 9 samples.

Results

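Acute phase proteins are plasma proteins, made mainly by hepatocytes, whose output changes when cytokines such as interleukin-6 and interleukin-1 signal inflammation, injury or infection. The 10 genes described here were chosen by symbol as positive members of this response, and each symbol matched 1 row among the 24008 genes with counts. They are Saa1, Saa2 and Saa4 (serum amyloid A, carried on high-density lipoprotein), Orm1, Orm2 and Orm3 (orosomucoid, a plasma carrier of lipophilic ligands), Lcn2 (lipocalin 2, which binds bacterial siderophores), Hp (haptoglobin, which captures free haemoglobin), Hamp (hepcidin, the hormone that degrades the iron exporter ferroportin) and Apcs (serum amyloid P component, a pentraxin). All 10 passed the filter on low counts, as did 14379 genes in all.

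Serum amyloid A1 and A2 are the classic strong responders, driven by STAT3, NF-κB and C/EBP factors, while Saa4 is known as the constitutive form. Hepcidin stands at the junction of the response with iron control, since both interleukin-6 through STAT3 and BMP6 through SMAD proteins raise its transcription. Lipocalin 2 is made by hepatocytes under cytokines, and also by neutrophils and by stressed epithelium such as bile ducts.

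Total RNA of whole liver was sequenced from 3 groups of male C57BL/6J mice, with 3 liver samples each, all on a diet rich in fat and carbohydrate that induces non-alcoholic steatohepatitis (NASH). Flox mice carried the unrecombined IRF4 flox alleles and are named wild type in the sample labels, F4MKO mice lacked the transcription factor IRF4 in skeletal muscle through Myl-Cre, a muscle-specific recombinase, and F4MKO + FSTL1 mice were F4MKO mice whose gastrocnemius received an adeno-associated virus with the secreted protein FSTL1 under the muscle creatine kinase promoter. According to the study's methods the other groups received a GFP virus, which the labels do not name. The study asked whether a signal from muscle alters the liver, so F4MKO livers were set against Flox livers, and F4MKO + FSTL1 livers against each of the others.

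Library totals ran from 20656976 to 24322984 gene counts, of which the 10 genes took 0.414% to 0.668%. The hepatocyte markers, 10 genes led by albumin, summed to between 77923 and 113133 CPM (counts scaled to TMM-normalized library size) in every library, with the lowest sum in F4MKO replicate 1. The liver counts of Irf4, 131, 132 and 101 in Flox, 120, 128 and 130 in F4MKO and 10, 92 and 116 in F4MKO + FSTL1, do not check a deletion made in muscle, and F4MKO + FSTL1 replicate 1 lies apart from the other libraries with its 10 counts.

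The genes lie in compact families. In GRCm38 with GENCODE vM21 models, Saa4 (chr7:46727998-46732603, minus strand), Saa1 (chr7:46740497-46742980, minus strand) and Saa2 (chr7:46751790-46754313, plus strand) are neighbours, and so are Orm1 (chr4:63344560-63348163), Orm3 (chr4:63356162-63359511) and Orm2 (chr4:63362449-63365878), all on the plus strand. Hamp (chr7:30942368-30944032, minus strand) lies inside an antisense noncoding gene, Gm44662. No gene of that name is among those with counts, and neither the annotation nor the use of strand in counting is stated. Whether reads of both genes were told apart or set aside is therefore not known. The transcripts of Saa1 and Saa2 are 94.4% identical over 606 aligned bases, and those of Orm1 and Orm2 91.0% identical over 775. No stretch of 150 bases, the read length, is shared unchanged between members of a family, but reads with few differences can still map to both genes, so values of single Saa and Orm genes carry that uncertainty. RefSeq also lists Saa1 and Saa2 as synonyms of each other.

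The bases before the transcription start are shown for the members whose levels are compared most below, from RefSeq windows in GRCm38.p6. Such windows were found for 8 of the 10 genes, not for Orm1 and Hp. Capitals mark matches to the letters TTGCNNAA on either strand, a core of C/EBP sites. The members shown are Saa1 (chr7:46742981-46743230, minus strand), Saa2 (chr7:46751583-46751789, plus strand, ending where the first GENCODE exon begins), Saa4 (chr7:46732604-46732853, minus strand), Orm2 (chr4:63362199-63362448, plus strand) and Orm3 (chr4:63355908-63356157, plus strand).
Saa1: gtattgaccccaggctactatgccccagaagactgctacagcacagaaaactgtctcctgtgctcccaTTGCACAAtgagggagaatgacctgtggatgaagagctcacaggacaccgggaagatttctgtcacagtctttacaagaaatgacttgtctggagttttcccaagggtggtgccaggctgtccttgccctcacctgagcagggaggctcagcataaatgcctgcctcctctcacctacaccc
Saa2: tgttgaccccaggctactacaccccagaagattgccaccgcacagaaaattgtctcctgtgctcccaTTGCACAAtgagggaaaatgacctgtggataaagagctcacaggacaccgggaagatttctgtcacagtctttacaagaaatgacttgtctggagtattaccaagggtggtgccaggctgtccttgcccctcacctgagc
Saa4: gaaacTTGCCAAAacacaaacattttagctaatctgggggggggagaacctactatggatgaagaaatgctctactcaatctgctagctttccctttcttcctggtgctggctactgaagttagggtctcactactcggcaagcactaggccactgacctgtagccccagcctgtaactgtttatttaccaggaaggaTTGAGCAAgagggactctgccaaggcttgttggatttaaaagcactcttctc
Orm2: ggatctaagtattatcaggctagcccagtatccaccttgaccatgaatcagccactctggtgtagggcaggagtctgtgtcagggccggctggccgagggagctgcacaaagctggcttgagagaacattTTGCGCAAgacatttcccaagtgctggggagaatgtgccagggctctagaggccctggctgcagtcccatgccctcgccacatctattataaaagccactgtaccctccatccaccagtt
Orm3: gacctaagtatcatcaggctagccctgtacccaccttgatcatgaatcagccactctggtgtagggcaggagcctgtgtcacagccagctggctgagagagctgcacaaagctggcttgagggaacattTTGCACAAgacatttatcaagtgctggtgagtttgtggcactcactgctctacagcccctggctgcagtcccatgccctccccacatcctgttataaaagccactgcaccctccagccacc

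Within 250 bases of the start, TTGCNNAA was found in all 3 Saa genes, in Orm2, in Orm3 and in Lcn2, while 9.56% of 32851 RefSeq windows hold it. Saa1 and Saa2 had the same 8 letters, TTGCACAA, and were 95.6% identical over 249 aligned bases of the window. Orm3 also had TTGCACAA and Orm2 had TTGCGCAA, in windows 89.0% identical over 245 aligned bases. Saa4 had other letters at each of its 2 matches, TTGCCAAA and TTGAGCAA.

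The Lcn2 and Hamp windows are shown for the other motifs searched. Lcn2 is given as 30 bases around each match, because its RefSeq window overlaps exons of other GENCODE transcripts. The first stretch (chr2:32387936-32387965, minus strand) holds the C/EBP core and the second (chr2:32387822-32387851, minus strand) holds the NF-κB form searched, GGG and TCC with any 4 bases between, read here on the opposite strand and present in 16.5% of windows. Capitals in Hamp (chr7:30944033-30944279, minus strand) mark GGCGCC, a BMP response element core present in 9.59% of windows, followed by TTCNNNGAA, the STAT form, present in 7.02%.
Lcn2 C/EBP: gcccttcctgTTGCTCAAccttgcacagtt
Lcn2 NF-κB: ggtaaaggatGGACTACCCCgcccaacagg
Hamp: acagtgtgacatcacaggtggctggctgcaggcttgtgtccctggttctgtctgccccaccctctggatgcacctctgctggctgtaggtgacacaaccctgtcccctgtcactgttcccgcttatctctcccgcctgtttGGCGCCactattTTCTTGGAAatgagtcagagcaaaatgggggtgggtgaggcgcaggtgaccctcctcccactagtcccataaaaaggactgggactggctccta

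The STAT form was also found once before Apcs and in no other window of the members. These matches are descriptions of letters, and no binding was measured.

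Compared per kilobase of transcript, the level of Hamp in Flox livers was the highest, at 2321 ± 1197 CPM per kilobase (SD, n = 3), followed by Hp at 1812 ± 219 and Orm1 at 979 ± 41.2. Hamp and Hp did not differ beyond their spread. Saa1 at 168 ± 26.5 and Saa4 at 151 ± 12.4 overlapped, then came Saa2 at 99.8 ± 4.77, Orm2 at 65.8 ± 5.46, Apcs at 46.5 ± 8.21, Lcn2 at 43.4 ± 1.41 and Orm3 at 7.50 ± 3.08. Apcs and Lcn2 also overlapped. Hp and Orm1 stood far above the inducible Saa1, Saa2 and Lcn2 in these NASH livers.

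**Figure D1:**
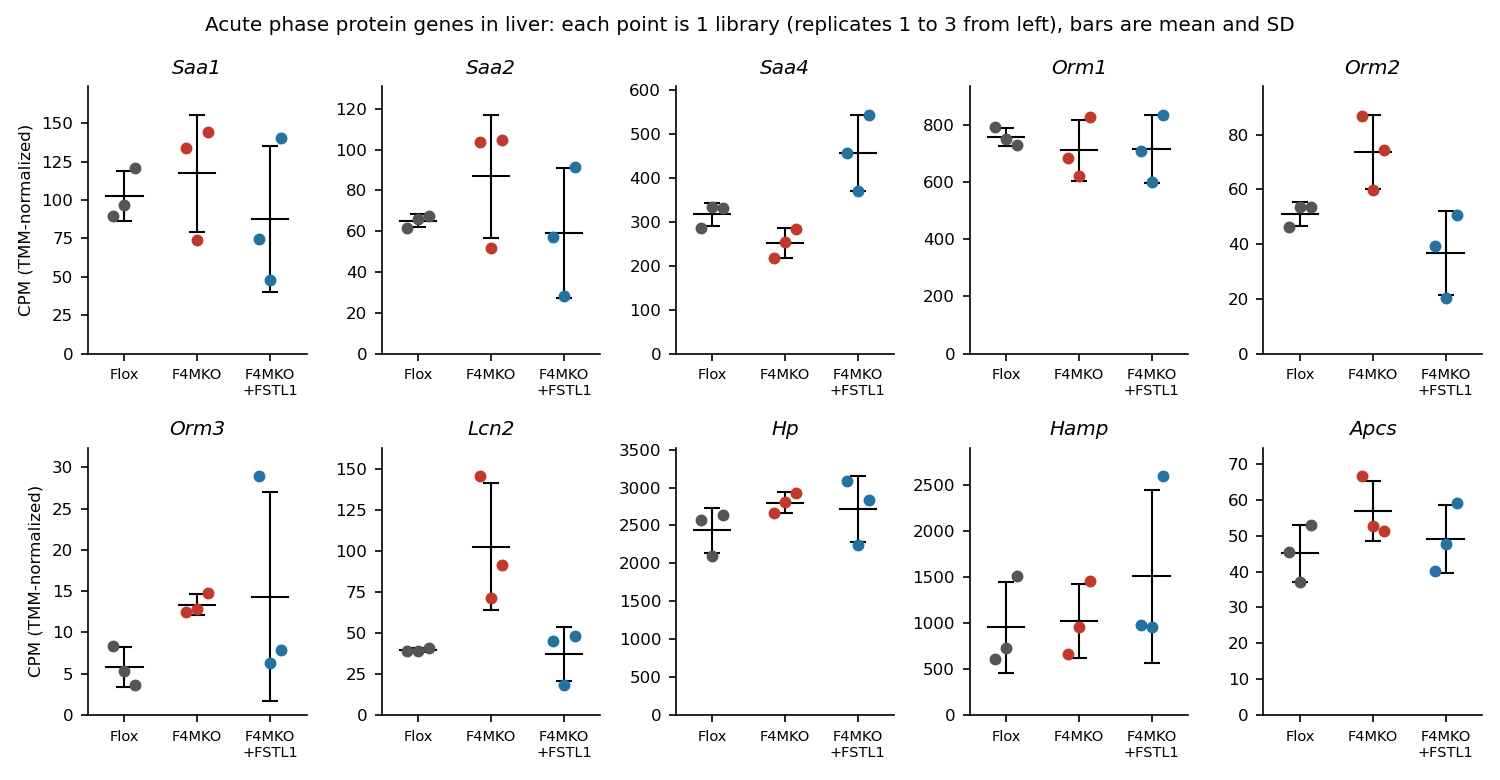
Levels of the 10 genes in CPM after TMM normalization (y axes, starting at 0) in the 9 liver libraries by group (x axes). Points are libraries, and the lines give mean and SD of 3. Lcn2 and Orm2 are higher in all F4MKO libraries than in any other, and Saa4 is highest in F4MKO + FSTL1. Hamp, Saa1 and Saa2 are highest in replicate 3 of every group.

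The clearest differences were in F4MKO + FSTL1 compared with F4MKO livers, where Lcn2 and Orm2 fell and Saa4 rose. A gene was called when its adjusted p was under 0.05 (edgeR quasi-likelihood test, Benjamini-Hochberg adjustment over all tested genes) and its fold change exceeded 1.5. These 3 of the 10 genes were called, beside 14.4% of all genes, of which 3.21% were called higher and 11.2% lower. The same 3 were the members whose groups did not overlap, beside 39% of all genes (18% higher and 21.1% lower). Without F4MKO + FSTL1 replicate 1, the library with few Irf4 counts, the log2 fold changes were -1.62 for Lcn2 (adjusted p = 0.0182, edgeR), -1.05 for Orm2 (adjusted p = 0.0416) and 0.86 for Saa4 (adjusted p = 0.0115). The median log2 fold change of the 10 was -0.13, and that of all tested genes was 0.01.

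In F4MKO compared with Flox livers 0 of the 10 genes were called, beside 0.271% of all genes. At an unadjusted p under 0.05, 2 of the 10 passed, Lcn2 and Orm3, as did 16.9% of all genes. DESeq2 called 1 member, Lcn2, beside 2.23% of the genes it tested. The groups did not overlap for 5 of the 10, with Lcn2, Orm2, Orm3 and Hp higher and Saa4 lower in F4MKO, beside 21.8% of all genes (11.7% higher and 10% lower). The median log2 fold change was 0.27 for the members.

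In F4MKO + FSTL1 compared with Flox livers 0 of the 10 were called, beside 0.00695% of all genes. DESeq2 also called 0 of them, beside 284 of 14231 genes, and 2, Saa4 and Orm3, had an unadjusted p under 0.05, as did 13.4% of all genes. Only Saa4 had groups without overlap, beside 18.2% of all genes, and 7.44% in its direction. The comparisons share libraries, so a high or low F4MKO group moves both comparisons that contain it.

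**Figure D2:**
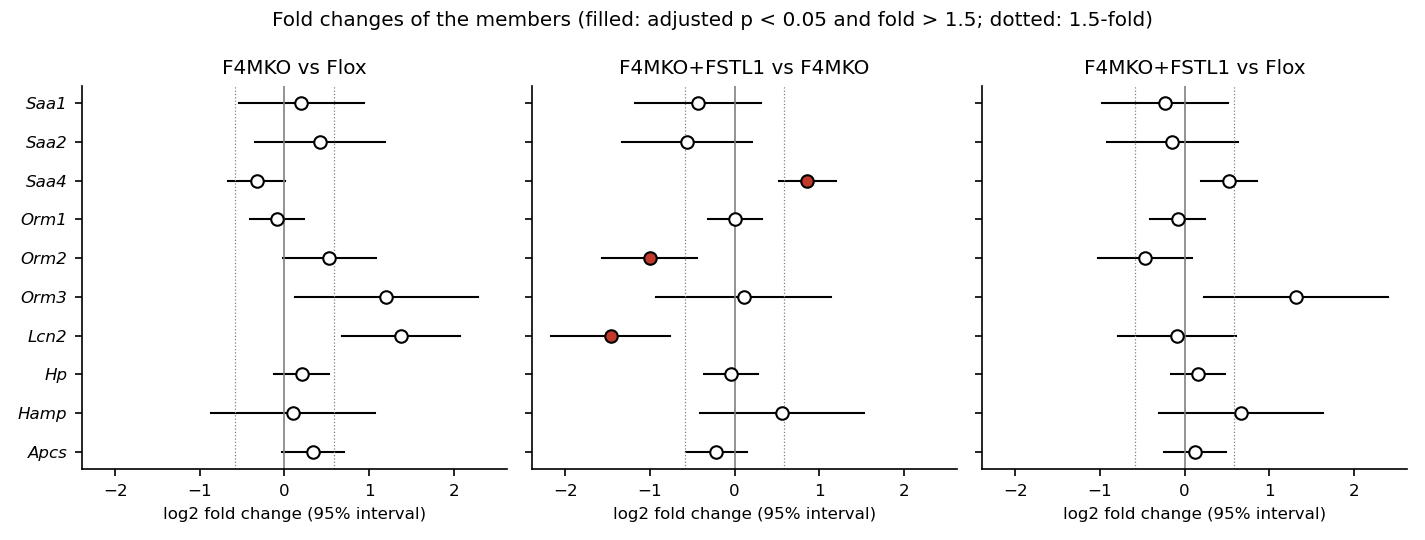
Log2 fold changes (x axes) of the 10 genes (y axis) in each comparison, with 95% intervals from the edgeR fit; dotted lines mark a 1.5-fold change. Filled points passed the test: Lcn2 at -1.46, Orm2 at -1.001 and Saa4 at 0.86, all in F4MKO + FSTL1 compared with F4MKO.

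Lcn2 had the largest change of the called members. Its levels were 39.2, 38.8 and 41.2 CPM in Flox, 146, 71.3 and 91.3 CPM in F4MKO, and 45.1, 18.6 and 48.4 CPM in F4MKO + FSTL1 libraries. The Flox libraries were nearly equal, all F4MKO libraries lay above all others, and F4MKO + FSTL1 replicate 2 was the lowest of all. The mean fell 2.75-fold from F4MKO to F4MKO + FSTL1 (log2 fold change -1.46 ± 0.32 SE, adjusted p = 0.00922, edgeR). Without F4MKO + FSTL1 replicate 2 this log2 fold change shrank to -1.13 (adjusted p = 0.0203, edgeR).

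Compared with Flox, Lcn2 was 2.59-fold higher in F4MKO (log2 fold change 1.37 ± 0.32 SE), with an adjusted p of 0.0776 in edgeR that missed the threshold and an adjusted p of 0.0381 in DESeq2. F4MKO + FSTL1 livers had a log2 difference from Flox of -0.09, with a 95% interval from -0.79 to 0.61, which leaves room for a change in either direction. F4MKO replicate 1 had the most Lcn2, the lowest hepatocyte marker sum and the highest normalization factor (1.17). Without it the log2 fold change from F4MKO to F4MKO + FSTL1 was -1.13 (adjusted p = 0.0382, edgeR), and that from Flox to F4MKO was 1.04 (adjusted p = 0.284, edgeR).

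Markers of other cells were read beside Lcn2, among them bile duct cells and neutrophils, which can make it. As for Lcn2, the bile duct and stellate cell sums were higher in every F4MKO library than in any Flox library. The neutrophil and macrophage sums overlapped between these groups, though not every single marker did. Csf3r, 1 of 6 tested neutrophil markers, was higher in every F4MKO library than in any Flox library. So were Ccr2 and Itgam, 2 of 10 macrophage markers, while 1, Marco, was lower without overlap. Over all tested genes, 11.7% were higher and 10% lower without overlap in this comparison. Of 8 bile duct markers, 6 were tested and 5 fell in F4MKO + FSTL1 compared with F4MKO, among them Spp1 (log2 fold change -2.64) and Epcam (-2.58), and these 2 also rose in F4MKO compared with Flox. Of all tested genes, 11.2% were called lower in the former comparison, and 0.271% were called in either direction in the latter. The 8 markers summed to 51.2 to 90.6 CPM in Flox, 163 to 437 CPM in F4MKO and 36.4 to 54.7 CPM in F4MKO + FSTL1. Spp1 alone made up 79.9% to 91.0% of each sum, and the other 7 markers summed to 9.05 to 13.0, 19.8 to 39.2 and 6.58 to 11.0 CPM in the same order of groups. F4MKO replicate 1 had the highest sum of the full list.

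Of 13 neutrophil markers, 6 were tested and 1, Csf3r, fell in F4MKO + FSTL1 compared with F4MKO, with a log2 fold change of -1.03. The list summed to 9.54 to 13.5 CPM in Flox, 12.6 to 17.6 in F4MKO and 5.62 to 9.61 in F4MKO + FSTL1. The granule genes Camp, Ltf, Elane and Mpo and the surface marker Ly6g did not pass the filter, and Ly6g had 0 to 2 counts in every library. Of 10 macrophage markers 7 fell, and their sum ran from 559 to 911 CPM in Flox, 712 to 778 in F4MKO and 338 to 521 in F4MKO + FSTL1. Of 10 stellate cell markers 6 fell, with sums of 447 to 519, 601 to 760 and 295 to 410 CPM in the same order of groups. The part of these cells in the levels of Lcn2 and Orm2 was not tested, and in whole liver fewer cells of a type and less RNA per cell cannot be told apart.

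**Figure D3:**
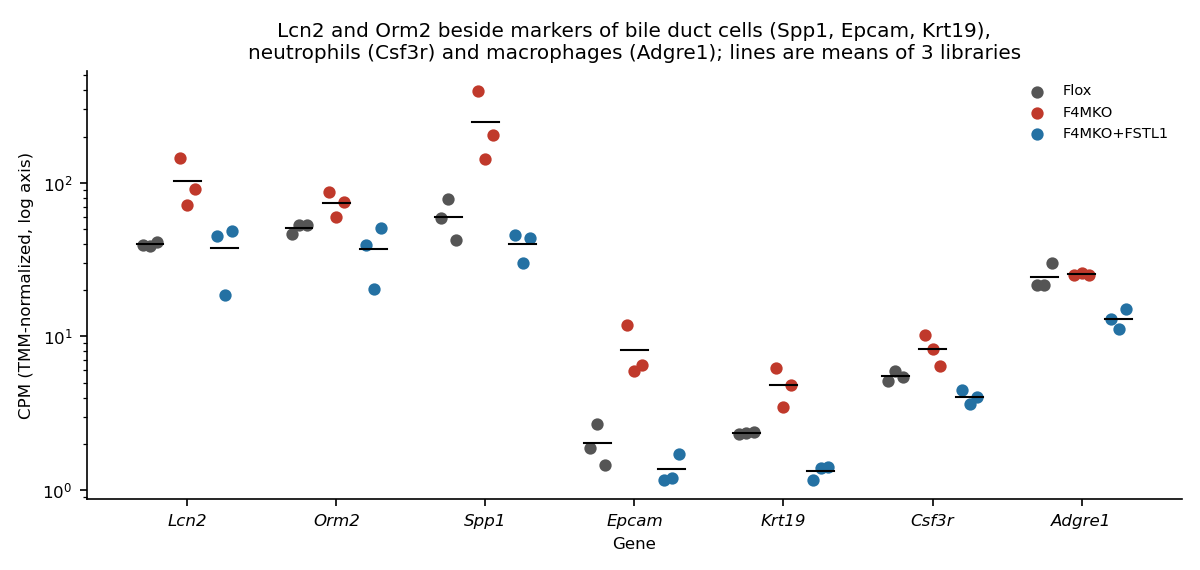
Levels of Lcn2 and Orm2 beside 3 bile duct markers, 1 neutrophil marker and 1 macrophage marker in CPM (y axis, log scale), with 3 libraries per group and a line at each mean. The 3 bile duct markers shown are highest in the F4MKO libraries, as Lcn2 is. Sox9 and Krt7, listed bile duct markers not shown, overlap between Flox and F4MKO. The macrophage marker Adgre1 is similar in Flox and F4MKO and lower in F4MKO + FSTL1. Other listed macrophage markers, not shown, differ from it. Ccr2 and Itgam are higher, and Marco lower, in every F4MKO library than in any Flox library.

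The orosomucoid genes did not move as a family. Orm2 measured 46.1, 53.4 and 53.4 CPM in Flox, 86.9, 59.6 and 74.6 in F4MKO, and 39.3, 20.5 and 50.8 in F4MKO + FSTL1 libraries. All F4MKO libraries lay above all others, and F4MKO + FSTL1 replicate 2 was again lowest. Orm2 fell 2.001-fold from F4MKO to F4MKO + FSTL1 (log2 fold change -1.001 ± 0.26 SE, adjusted p = 0.0182, edgeR). Without F4MKO replicate 1 the value was -0.87 (adjusted p = 0.0701, edgeR), which ended the call. Without F4MKO + FSTL1 replicate 2 it shrank to -0.71 (adjusted p = 0.0286, edgeR). Compared with Flox, Orm2 in F4MKO was higher by 0.53 on the log2 scale (adjusted p = 0.314, edgeR).

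Orm1, the most abundant of the 3, measured 794, 751 and 731 CPM in Flox, 683, 623 and 829 in F4MKO, and 710, 601 and 836 in F4MKO + FSTL1. The groups overlapped in every comparison. Its log2 fold change from F4MKO to F4MKO + FSTL1 was 0.01, with a 95% interval from -0.31 to 0.33, so a change of 1.26-fold or more in either direction lies outside the interval. When the counts of the family were added to 1 row, which Orm1 dominates, the log2 fold change was -0.06 (adjusted p = 0.812, edgeR).

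Orm3 was the scarcest member, with 8.38, 5.33 and 3.68 CPM in Flox, 12.5, 12.8 and 14.8 in F4MKO, and 28.9, 6.25 and 7.83 in F4MKO + FSTL1. The F4MKO libraries lay above all Flox libraries, and F4MKO + FSTL1 replicate 1, the library with 10 counts of Irf4, was far above the other libraries of its group. On the log2 scale F4MKO exceeded Flox by 1.20 (adjusted p = 0.251, edgeR) and F4MKO + FSTL1 exceeded F4MKO by 0.11 (adjusted p = 0.893). Without that library the latter turned to -0.92 (adjusted p = 0.0464, edgeR), so its direction rests on 1 library.

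The serum amyloid A genes parted in the same way, with Saa4 on its own. Saa4 measured 287, 332 and 331 CPM in Flox, 217, 254 and 284 in F4MKO, and 456, 370 and 543 in F4MKO + FSTL1 libraries. The F4MKO libraries were the lowest and the F4MKO + FSTL1 libraries the highest, with no overlap between any groups. Saa4 rose 1.81-fold from F4MKO to F4MKO + FSTL1 (log2 fold change 0.86 ± 0.15 SE, adjusted p = 0.00372, edgeR). The differences from Flox missed the threshold, with a log2 fold change of -0.33 in F4MKO (adjusted p = 0.300, edgeR) and 0.53 in F4MKO + FSTL1 (adjusted p = 0.170). For the latter, DESeq2 gave 0.54 with an adjusted p of 0.0323, and edgeR without the filter on low counts gave 0.53 with an adjusted p of 0.0480, both below the fold threshold.

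Saa1 measured 89.7, 97.0 and 121 CPM in Flox, 134, 74.0 and 145 in F4MKO, and 74.4, 47.7 and 140 in F4MKO + FSTL1. Saa2 measured 61.6, 66.2 and 67.5 CPM in Flox, 104, 51.8 and 105 in F4MKO, and 57.1, 28.0 and 91.6 in F4MKO + FSTL1. For both genes the groups overlapped in all 3 comparisons, and replicate 2 was the lowest library of both the F4MKO and the F4MKO + FSTL1 group. Replicate 3 was the highest library of every group for both. From F4MKO to F4MKO + FSTL1 the log2 fold change was -0.43 for Saa1 (adjusted p = 0.399, edgeR) and -0.56 for Saa2 (adjusted p = 0.282), with 95% intervals from -1.17 to 0.32 and from -1.33 to 0.21. Their counts added to 1 row gave -0.48 (adjusted p = 0.346, edgeR). Without F4MKO + FSTL1 replicate 3, Saa1 alone reached -0.94 (adjusted p = 0.0407, edgeR).

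**Figure D4:**
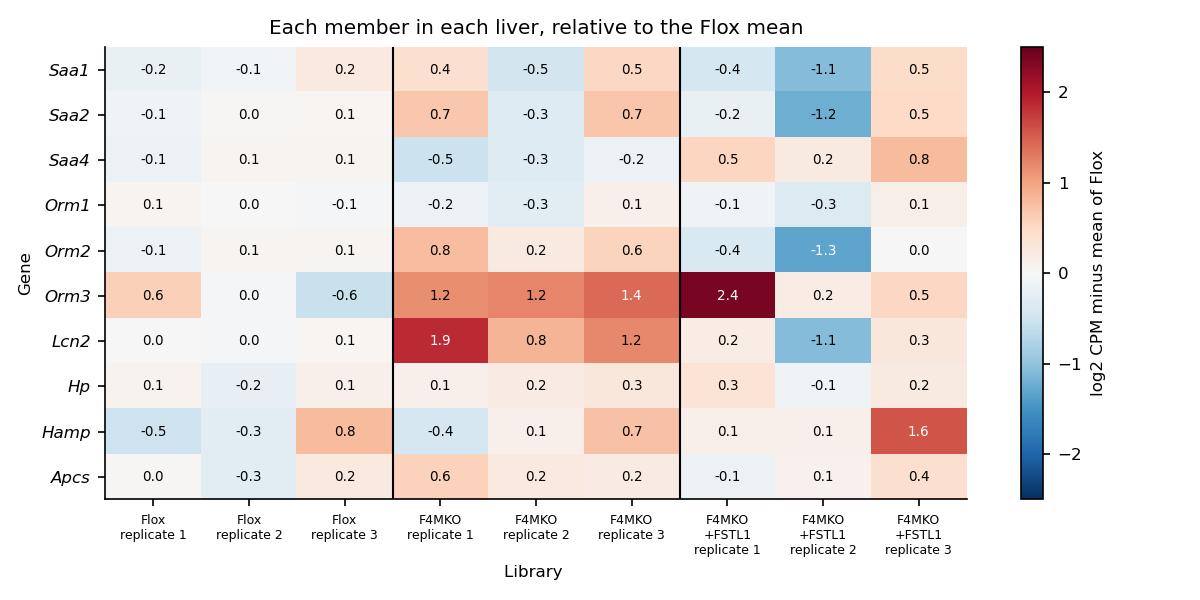
Log2 CPM of each gene (rows) in each library (columns) minus the mean of the 3 Flox libraries, printed in each cell and coloured from blue (lower) to red (higher). Saa1, Saa2, Orm2 and Lcn2 are all lowest in F4MKO + FSTL1 replicate 2. Hamp, Saa1 and Saa2 are highest in replicate 3 of each group.

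Hamp, the iron hormone, varied more between libraries of a group than between groups. It measured 610, 731 and 1514 CPM in Flox, 658, 956 and 1456 in F4MKO, and 972, 956 and 2593 in F4MKO + FSTL1. Replicate 3 was the highest of every group, and the groups overlapped in every comparison. The log2 fold changes were 0.10 in F4MKO compared with Flox (adjusted p = 0.927, edgeR), 0.56 in F4MKO + FSTL1 compared with F4MKO (adjusted p = 0.398) and 0.66 compared with Flox (adjusted p = 0.586). The last has a 95% interval from -0.31 to 1.63, so an increase of up to 3.11-fold lies within it.

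Haptoglobin, the member with the highest CPM, measured 2567, 2099 and 2644 CPM in Flox, 2664, 2811 and 2933 in F4MKO, and 3082, 2243 and 2833 in F4MKO + FSTL1. The F4MKO libraries all lay above the Flox libraries, by 1.15-fold in the mean, with an adjusted p of 0.514 in edgeR. Its log2 fold change from F4MKO to F4MKO + FSTL1 was -0.04, with a 95% interval from -0.37 to 0.28.

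Apcs, the mouse pentraxin of the acute phase, measured 45.5, 37.0 and 52.9 CPM in Flox, 66.6, 52.6 and 51.5 in F4MKO, and 40.2, 47.8 and 59.1 in F4MKO + FSTL1. The groups overlapped throughout. It differed from Flox by 0.34 (log2) in F4MKO (adjusted p = 0.332, edgeR), and F4MKO + FSTL1 differed from F4MKO by -0.22 (adjusted p = 0.382).

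Spread within groups set these members apart from one another. Ranked by the SD of log2 CPM within groups, Orm3 stood at percentile 98.2 of all tested genes, Hamp at 97.3, Saa2 at 95.2, Saa1 at 93.9 and Lcn2 at 92.8. Orm1 and Hp stood at 47.0 and 43.8, near the middle, and Saa4 at 53.7. From the lowest to the highest of all 9 libraries, group differences included, Orm3 ranged 7.85-fold and Lcn2 7.83-fold. Orm1 ranged 1.39-fold and Hp 1.47-fold. Within groups, the coefficient of variation (SD over mean) of Lcn2 was 3.25% in Flox, 37.5% in F4MKO and 43.7% in F4MKO + FSTL1. For Saa2 it was 4.78%, 34.9% and 54.1% in the same order.

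Other genes of the response were read from lists by role. Of 24 other positive acute phase genes tested, 3 fell and 1 rose in F4MKO + FSTL1 compared with F4MKO, with a median log2 fold change of -0.07. The share called was 16.7%, beside 14.4% of all tested genes (3.21% higher and 11.2% lower). Among those that fell, Cd14, the endotoxin co-receptor, had a log2 fold change of -1.52 and Il1rn, the interleukin-1 receptor antagonist, of -1.18. Serpina1a, a copy of alpha-1 antitrypsin, rose by 0.68, and is 1 of several close copies among which reads can be split. Cd14 and Il1rn are also made by macrophages, whose marker sum is given beside Lcn2 above. Crp, C-reactive protein, which responds weakly in mice, was higher by 0.44 on the log2 scale (adjusted p = 0.0199, edgeR), below the fold threshold.

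Of 11 negative acute phase genes tested, 1 rose and 0 fell in F4MKO + FSTL1 compared with F4MKO, with a median log2 fold change of 0.24. The share called was 9.09%, beside 14.4% of all tested genes. The called gene was Fetub, fetuin-B, which rose by 0.98 on the log2 scale (adjusted p = 0.00131, edgeR).

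Among 26 tested genes of cytokine signalling, 3 rose and 2 fell in that comparison, with a median of -0.15. The share called was 19.2%, beside 14.4% of all tested genes. Osmr, the oncostatin M receptor, and Tlr4, the endotoxin receptor, had log2 fold changes of -1.03 and -0.72, while the receptor subunits Il1rap and Lifr rose by 0.91 and 0.85 and the factor Cebpa by 0.66 on that scale. Il6, Osm and Lif did not pass the filter on low counts. Stat3, a factor of interleukin-6 signalling, and its target Socs3 had log2 fold changes of -0.18 (adjusted p = 0.509, edgeR) and -0.19 (adjusted p = 0.731), and Cebpb had 0.25 (adjusted p = 0.285). These are RNA levels, and the activity of the pathway was not measured.

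Of 26 tested genes of the BMP and iron pathway that governs hepcidin, 1 was called, Tfrc, the transferrin receptor, with a log2 fold change of -0.81. The share called was 3.85%, beside 14.4% of all tested genes. The list's median was 0.03. Bmp6, the ligand that reports iron stores to the Hamp gene, differed by 0.16 on the log2 scale (adjusted p = 0.575, edgeR), and its target Id1 had -0.65 (adjusted p = 0.119).

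Of 15 tested partners and receptors of the members, 7 fell and 1 rose, with a median of -0.61. The share called was 53.3%, beside 14.4% of all tested genes. Tlr2 and Fpr2, receptors that bind serum amyloid A, had log2 fold changes of -1.16 and -1.02, and P2rx7 of -0.99, while Apoa2, an apolipoprotein of high-density lipoprotein, rose by 0.82. Cd163, the macrophage receptor for haptoglobin bound to haemoglobin, differed by 1.55 on the log2 scale (adjusted p = 0.0851, edgeR). Slc22a17, a receptor for lipocalin 2, had -0.61 (adjusted p = 0.230). Several of these receptors are myeloid genes, and 7 of 10 macrophage markers fell in the same comparison, whose part in these values was not tested.

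In F4MKO compared with Flox and in F4MKO + FSTL1 compared with Flox, 0 genes of these 5 lists passed the edgeR test, while DESeq2 called 1 gene of the lists in the former and 2 in the latter, beside 338 of 15162 and 284 of 14231 genes in all.

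**Figure D5:**
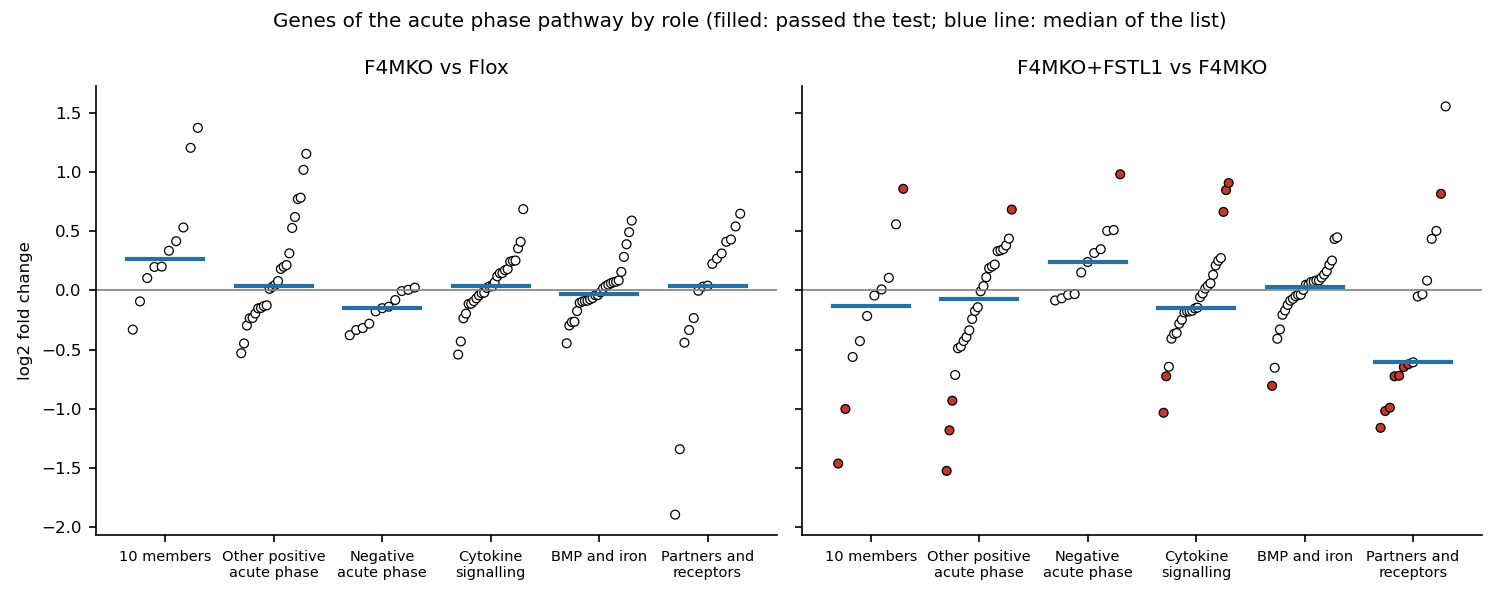
Log2 fold changes (y axis) of the tested genes in each list (x axis) in F4MKO compared with Flox (left) and F4MKO + FSTL1 compared with F4MKO (right). Filled points passed the test and blue lines are medians; no gene passed on the left, and on the right the partners and receptors have the lowest median, -0.61.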

How the data were processed

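RNA from 9 whole-liver samples, 3 per group, was sequenced as 150-base paired-end reads. The authors trimmed reads (Trim Galore 0.6.7), mapped them to mm10 (HISAT2 2.2.1) and counted them on genes (featureCounts 2.0.1), per the submitters' processing notes, and the deposited values are raw counts. The annotation, the use of strand and the treatment of multi-mapped reads are not given in the sources used here.

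The count model was edgeR 4.0.16 (R 4.3.3). Genes passing filterByExpr (minimum count 10, minimum total 15) were tested in 1 quasi-likelihood fit over all 9 libraries after TMM normalization (factors 0.927 to 1.17), which was tested on simulated data. SE was the log2 fold change divided by the square root of F, and 2 was the prior count for log2 CPM. Nothing in the labels says that replicates are separate animals beyond separate tissue samples, so p-values measure the spread between these samples.

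All 10 members are named, with, from each list, up to 4 called genes of largest change, and receptors, ligands and markers needed to read a member. A called gene of the other positive acute phase list is counted but not reported here by name. The members and lists were chosen with earlier results of these data known. Alternatives were DESeq2 1.42.0, its size factors, no filter, only the 6 libraries compared, the replicate number as a block, no fold threshold, family counts summed and each library left out in turn.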

Additional observations from a re-analysis of the deposited data

How the results depend on the processing

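In F4MKO + FSTL1 compared with F4MKO, Lcn2 (log2 fold change -1.68 to -1.13) and Saa4 (0.72 to 0.99) stayed called under 14 of 14 alternatives. Orm2 stayed called under 13 of 15, and ran from -1.29 to -0.71 with 1 library left out. In F4MKO compared with Flox, members called went from 0 to 1, Lcn2, with DESeq2 (1.37, adjusted p = 0.0381), without the filter on low counts (1.37, adjusted p = 0.00053, edgeR) and with the replicate block (1.29, adjusted p = 0.0457, edgeR), and ranged from 0 to 1 with each library left out, being 1 without F4MKO + FSTL1 replicate 2 (adjusted p = 0.0480, edgeR). In F4MKO + FSTL1 compared with Flox, 1 member, Orm3, was called without the filter (1.32, adjusted p = 0.0360, edgeR). For Orm3 in F4MKO + FSTL1 compared with F4MKO, leaving out F4MKO + FSTL1 replicate 1 reversed the value to -0.92, and values with 1 library left out ran from -0.92 to 0.47. The cause of these changes was not tested.

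Genes called in the 5 lists of the response, cell type markers aside, were 0 in F4MKO compared with Flox, but 1 with DESeq2, 3 without the filter and 0 to 1 with each library left out (1 without F4MKO replicate 2). In F4MKO + FSTL1 compared with Flox they were 0, but 2 with DESeq2, 2 without the filter and 0 to 2 with each library left out (2 without F4MKO + FSTL1 replicate 3). Over all genes, calls were 39 in F4MKO compared with Flox (0 to 478 under the alternatives), 2070 in F4MKO + FSTL1 compared with F4MKO (1295 to 2397) and 1 in F4MKO + FSTL1 compared with Flox (0 to 379).

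Replicates share numbers across groups, and 4 of 9 pairs of same-numbered libraries had deviations correlated over 0.1. Among them were all 3 pairs of replicate 3 (0.17 to 0.30), while the pairs under 0.1 ran from -0.0985 to 0.0919. Of 9 libraries, 5 correlated best with their own number, and some such matches arise without pairing. This is at most a hint from the data and not the design. With the replicate number as a block, calls over all genes were 134, 2170 and 15 in the 3 comparisons, and no call of a member changed other than that of Lcn2 in F4MKO compared with Flox. With 3 libraries per group, 95% intervals of Hamp, Saa1, Saa2 and Orm3 are wide, and depth is not the limit for members other than Orm3, which had 83 to 619 counts.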

Other observations

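Over the 9 libraries, the tested genes whose log2 CPM followed a member most closely were listed by Pearson r, as a description chosen as the highest among all genes. For Saa1 they were Saa2 (r = 0.965), its near-identical neighbour, then Man2c1 (0.964), Abracl (0.953), Calm2 (0.953) and Lsm8 (0.952). For Lcn2 they were Rcn2 (0.982), Ms4a4a (0.973), Eid1 (0.971), Zfp651 (0.969) and Vangl2 (0.966). For Hamp they were Mtpap (0.963), Srfbp1 (0.950), Nucks1 (0.947), Celf4 (0.946) and Gmnn (0.942).

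Metallothionein genes Mt1 and Mt2, zinc and copper binding proteins that also rise in an acute phase response, were highest in replicate 3 of every group. Hamp, Saa1 and Saa2 were so too. Further genes of the other positive acute phase list had that order, among them Serpina3n and Lrg1, while others such as Crp did not. Mt1 measured 24.5, 74.3 and 340 CPM in Flox, 106, 204 and 579 in F4MKO, and 107, 49.0 and 505 in F4MKO + FSTL1. Bmp6 measured 4.46, 3.52 and 5.86 CPM in Flox, 4.24, 4.40 and 4.31 in F4MKO, and 5.28, 4.66 and 4.54 in F4MKO + FSTL1. Id1 measured 8.43, 5.86 and 9.36 CPM in Flox, 11.1, 9.72 and 14.8 in F4MKO, and 6.03, 5.29 and 11.4 in F4MKO + FSTL1. This target was highest in replicate 3 of every group. Id2, Id3, Smad7 and Atoh8 of the same list did not have that order in every group. The part of these genes in the levels of Hamp was not tested. In the liver, Fstl1 measured 6.15, 7.62 and 6.52 CPM in Flox, 16.1, 9.80 and 11.3 in F4MKO and 5.33, 3.22 and 4.33 in F4MKO + FSTL1, and its log2 fold change from F4MKO to F4MKO + FSTL1 was -1.53 (adjusted p = 0.00171, edgeR). The virus was placed in muscle, so these liver levels do not check it.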
